A study of Arabidopsis thaliana with 18 samples.

Results

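SBT3.3 (AT1G32960) was followed through its 1 probe set on the Affymetrix ATH1 array, which carries 22746 probe sets that are not controls and names 13287 genes through probe sets listed with a single gene. A probe set is a group of short probes that together stand for a transcript. The gene was selected on its measured signals in these same arrays, which differed between treatments. Its levels and differences are therefore given as a description with their errors and without a test, and tests are given only for other genes.

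SBT3.3 encodes a subtilase, a subtilisin-like serine protease that is secreted into the cell wall space. Plants carry large families of subtilases, which process peptide precursors and other extracellular proteins. SBT3.3 is known in Arabidopsis for its part in immune priming, the state in which a plant that has met a pathogen or an inducing chemical answers a later attack faster. Plants that overproduce SBT3.3 have been described as primed, with defence genes more readily induced, and plants without it as more susceptible to pathogens.

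All 18 arrays came from root cultures of wild type Arabidopsis thaliana, ecotype Col-0, kept in darkness at 25 °C in the B5 medium of Gamborg and used at an age of 14 days. The cultures received acetone, fenclorim or CMP and were sampled after 4 h or 24 h, which gives 6 groups of 3 arrays. Acetone is a common solvent for such compounds and served as the control in the comparisons below. Fenclorim is a pyrimidine compound sold as a safener, an agent that protects a crop against herbicide injury. CMP is a code name, and neither its structure nor the doses are stated in the labels. The labels do not say whether replicates were separate cultures, so every p-value below measures the spread between arrays, which may be technical. A root culture mixes cell types, and a lower signal from fewer cells of a type cannot be told apart from less transcript per cell.

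Signals are the authors' MAS5 values, which share a trimmed mean of 100.01 in every array. The median signal of an array was 35.4 to 40.9 with acetone and 27.2 to 35.2 with the compounds. The median difference over the 15261 tested probe sets on the log2 scale was accordingly below 0, at -0.23 and -0.24 for fenclorim and -0.25 and -0.13 for CMP, early and late. On the second principal component of all arrays, 3 arrays stood apart from their groups. Fenclorim 4 h replicate 3 lay at 52.4 against 1.66 and 11.0, fenclorim 24 h replicate 2 at 4.21 against 72.7 and 75.5, and CMP 4 h replicate 2 at 15.9 against -30.4 and -41.2. A call below is an adjusted p under 0.05 in limma's test. Without these 3 arrays together, 24 values of the genes named below gained a call, 8 lost it and 238 kept their side. These values are comparisons with acetone and between the compounds, and only some of the changes are named where they occur. Changes between the times were not repeated without these arrays for genes other than SBT3.3.

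SBT3.3 was barely detected in solvent-treated cultures and was among the brighter transcripts in every culture given either compound. With acetone at 4 h its signals in replicates 1 to 3 were 2.40, 7.03 and 0.689, and with acetone at 24 h they were 15.0, 19.4 and 13.5. With fenclorim the signals were 711, 658 and 611 at 4 h and 345, 276 and 284 at 24 h. With CMP they were 1407, 1221 and 1254 at 4 h and 630, 1012 and 865 at 24 h. Every compound array thus lay above every acetone array, and at each time every CMP array lay above every fenclorim array.

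The position of SBT3.3 within each array shows the same contrast. All 6 acetone arrays placed it under their 40th percentile, at percentiles 8.20 to 26.5 at 4 h and 33.1 to 37.7 at 24 h. All 12 compound arrays placed it between percentiles 88.6 and 98.4. So low in an array a signal is hard to separate from background, and the acetone values mark a low level, not a precise one. The spread shows this, since the SD of the log2 signal was 1.68 with acetone at 4 h and 0.11 with CMP at 4 h.

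**Figure D1:**
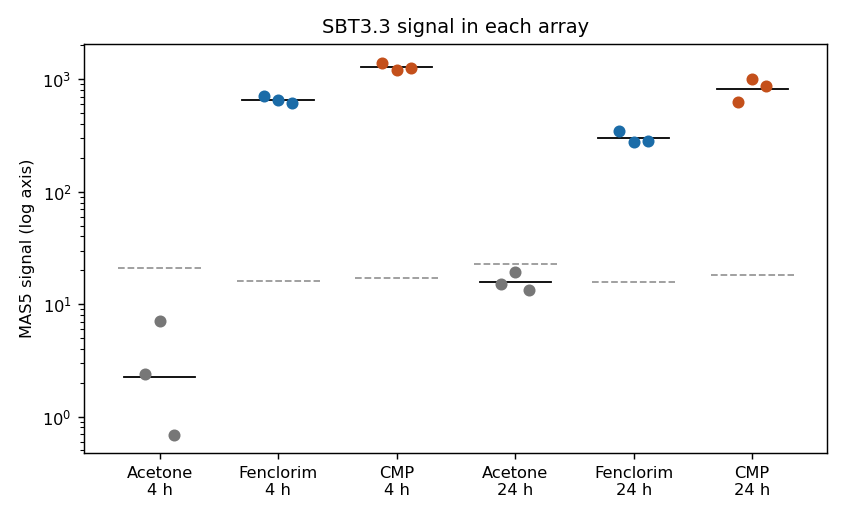
MAS5 signal of SBT3.3 on a log axis in the 18 arrays, by group. Points are arrays, solid bars the mean of the log2 signals of 3 arrays, and dashed lines the 40th percentile of signal, averaged over the 3 arrays of the group. The acetone points lie below the dashed lines, down to 0.689, and the compound points lie far above them, up to 1407.

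Ordered by mean log2 signal, the groups ran from CMP at 4 h at 10.33 ± 0.11 (SD, n = 3) through CMP at 24 h at 9.68 ± 0.35, fenclorim at 4 h at 9.36 ± 0.11 and fenclorim at 24 h at 8.23 ± 0.17. Acetone at 24 h followed at 3.98 ± 0.27 and acetone at 4 h was lowest at 1.18 ± 1.68. Of the neighbours in this order, CMP at 24 h and fenclorim at 4 h overlapped, because the CMP array at 630 lay below the fenclorim arrays at 658 and 711. No other pair of neighbours shared any range of values.

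Against acetone, the mean log2 signal of SBT3.3 was higher by 8.18 ± 0.51 (SE) with fenclorim and by 9.16 ± 0.51 with CMP at 4 h. At 24 h the differences were 4.25 ± 0.51 with fenclorim and 5.70 ± 0.51 with CMP. Both compounds were set against the same acetone arrays at each time. The SE of 0.51 is the same for every pair of groups because the fit takes a shared spread from all 6 groups. The SDs of those groups ran from 0.11 to 1.68, the largest with acetone at 4 h. The SE therefore understates the spread where acetone at 4 h is compared and overstates it elsewhere. With each array centred on its median, which removes the general shift, the differences were 8.53 and 9.45 at 4 h and 4.74 and 5.97 at 24 h.

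The fold that these differences stand for depends on how the low acetone signals are treated. As measured, the 4 h differences are 291-fold with fenclorim and 570-fold with CMP, and the 24 h differences 19.0-fold and 52.0-fold. With 16 signal units added before the logarithm, which damps low signals, the 4 h values were 35.1-fold and 68.1-fold. The lowest fenclorim array and the highest acetone array differed 86.9-fold at 4 h and 14.2-fold at 24 h. The corresponding closest pair for CMP differed 174-fold at 4 h and 32.5-fold at 24 h.

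Over time the level of SBT3.3 differed in opposite directions in treated and control cultures. Between 4 h and 24 h its log2 signal differed by -1.13 ± 0.51 (SE) with fenclorim and by -0.66 ± 0.51 with CMP. In acetone the difference was 2.80 ± 0.51, and the 3 arrays at 24 h all lay above the 3 at 4 h although both groups were under the 40th percentile of their arrays. Adding 16 signal units brought the acetone difference to 0.73. Without acetone 4 h replicate 2 it was 3.62, and without acetone 4 h replicate 3 it was 1.94. From 4 h to 24 h the difference from acetone changed by -3.93 ± 0.72 for fenclorim and by -3.46 ± 0.72 for CMP on the log2 scale. The larger part of each is the acetone difference of 2.80, which rests on signals under the 40th percentile.

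The acetone groups serve as the background for all time comparisons. No probe set of the 15261 passed limma's test between acetone at 24 h and 4 h at an adjusted p under 0.05, which is 0.00%, while 769 had an unadjusted p under 0.05, which is 5.04%. The probe set of SBT3.3 is among the 15261, and its acetone difference of 2.80 is a description only.

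CMP and fenclorim were compared with each other at both times, a total of 2 pairs. The mean signal of SBT3.3 at 4 h was 1294 ± 99.2 (SD, n = 3) with CMP and 660 ± 49.96 with fenclorim, a log2 difference of 0.97 ± 0.51 (SE). At 24 h the means were 836 ± 193 and 301 ± 37.7, a log2 difference of 1.45 ± 0.51. These correspond to 1.96-fold and 2.73-fold higher signals with CMP. The SE again carries the spread of acetone at 4 h, which is in neither comparison. The SDs of the log2 signals of CMP and fenclorim were 0.11 and 0.11 at 4 h and 0.35 and 0.17 at 24 h. The closest arrays of the compounds still differed 1.72-fold at 4 h and 1.83-fold at 24 h. The doses are not in the labels, so these values set the treatments side by side as they were given.

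SBT3.3 lies on chromosome 1 in a run of neighbouring genes that includes SBT3.5 (AT1G32940), AT1G32950, AT1G32970 and AT1G32980, per the gene order of the RefSeq table of assembly TAIR10.1. Of the 10 genes on either side, 6 had a named probe set and 3 were bright enough to be tested. Bright enough meant a signal higher than 40% of the probe sets of an array, in 3 arrays or more. AT1G32950 met this only through arrays in which it was high, with 7 compound arrays and 0 acetone arrays above, so it is described without a test. SBT3.5 and AT1G33030 were above in most acetone arrays too. In limma's test with Benjamini-Hochberg adjustment over all 15261 probe sets, both were called higher than acetone in each of the 4 comparisons. With fenclorim 14.4% of all tested probe sets were called higher at 4 h and 14.2% at 24 h, and with CMP 13.8% and 17.3%.

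SBT3.5 is a named subtilase of this run, and in Arabidopsis roots it has been linked to the processing of a pectin methylesterase. Its signals were 39.8, 25.0 and 23.0 with acetone at 4 h and 41.6, 31.3 and 36.0 with acetone at 24 h. With fenclorim they were 461, 426 and 324 at 4 h and 164, 225 and 183 at 24 h. With CMP they were 640, 692 and 639 at 4 h and 365, 585 and 518 at 24 h. As for SBT3.3, no compound array of SBT3.5 overlapped the acetone arrays and no CMP array overlapped the fenclorim arrays of its time.

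In limma's test SBT3.5 was higher than acetone at 4 h by 3.81 ± 0.22 (SE) on the log2 scale with fenclorim (adjusted p = 2.3e-09) and by 4.53 ± 0.22 with CMP (adjusted p = 3.92e-10). At 24 h the differences were 2.39 (adjusted p = 8.94e-07) and 3.73 (adjusted p = 6.28e-09). CMP exceeded fenclorim at 24 h by 1.34 (adjusted p = 0.000477), where 17.2% of the tested probe sets were called higher and 13.7% lower. At 4 h the difference of 0.72 (95% interval 0.25 to 1.19) had an adjusted p of 0.0616, which became 0.0291 with 16 units added and 0.0485 with only the arrays compared in the fit. From 4 h to 24 h SBT3.5 fell by 1.08 with fenclorim (adjusted p = 0.00698), a comparison in which 4.89% of the tested probe sets were called lower. The fenclorim effect was smaller at 24 h than at 4 h by a tested difference of -1.42 (adjusted p = 0.0251), where 1.74% of the tested probe sets were called lower.

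AT1G32950 lies between SBT3.5 and SBT3.3 and was dim throughout. Its signals were 6.60, 1.17 and 0.885 with acetone at 4 h and 6.01, 1.296 and 0.907 at 24 h. They were 23.5, 14.4 and 12.4 with fenclorim at 4 h and 5.62, 6.41 and 1.58 at 24 h. They were 20.8, 17.4 and 31.5 with CMP at 4 h and 26.1, 33.7 and 31.8 at 24 h. Of the compound groups, fenclorim at 24 h alone overlapped its acetone arrays. No acetone array and no fenclorim array at 24 h reached the 40th percentile of its array, so those values mark a low level and carry no order.

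AT1G33030, the 9th gene after SBT3.3, gave acetone signals of 37.8, 20.2 and 13.2 at 4 h and 37.8, 50.2 and 45.4 at 24 h. With fenclorim its signals were 277, 212 and 121 at 4 h and 145, 136 and 90.4 at 24 h. With CMP they were 216, 194 and 229 at 4 h and 135, 196 and 188 at 24 h. The compound arrays lay above the acetone arrays, and the compounds overlapped each other at both times. In limma's test it was higher than acetone by 3.15 and 1.46 with fenclorim and by 3.297 and 1.95 with CMP, with a largest adjusted p of 0.00295. The compounds differed by 0.14 at 4 h (95% interval -0.56 to 0.85) and by 0.49 at 24 h (95% interval -0.21 to 1.20), and neither passed.

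AT1G32970 and AT1G32980, the neighbours on the other side, did not reach the level needed for a test. Their signals ran from 0.492 to 12.6 and from 0.211 to 7.13 over all 18 arrays, without an array above its 40th percentile. AT1G33000, a pseudogene in the RefSeq table, stayed at or below 5.72. Related subtilases can share stretches of sequence, and whether transcripts of one reached the probes of another was not tested.

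**Figure D2:**
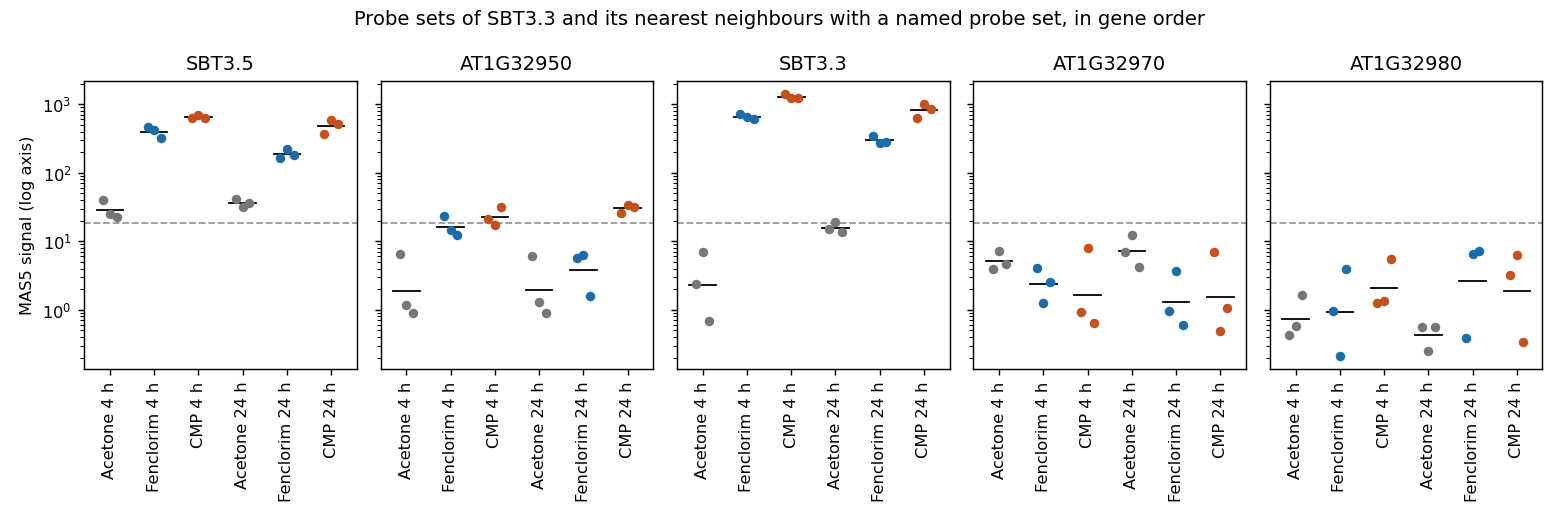
MAS5 signals on a log axis of SBT3.3 and of the neighbours with a named probe set nearest to it, in gene order along the chromosome and by group. Points are arrays, solid bars the mean of the log2 signals, and the dashed line the mean 40th percentile over the 18 arrays. SBT3.5 and SBT3.3 lie higher with both compounds than with acetone, whereas AT1G32970 and AT1G32980 stayed under the dashed line. Levels of different probe sets are not comparable with each other.

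The files name 9 subtilases other than SBT3.3, and 7 of them were tested. AT1G32950 carries no such name in the annotation and is not among them. SBT3.5 was the 1 of 7 called higher against acetone in each of the 4 comparisons, where 14.4% and 14.2% of all tested probe sets were called higher with fenclorim and 13.8% and 17.3% with CMP. Called lower were 1 of 7 with fenclorim at 4 h and 4 of 7 at 24 h, where 25.0% and 27.7% of all tested probe sets were called lower. With CMP 2 of 7 were called lower at either time, against 23.3% and 25.7%. The median difference of the 7 was -0.87 and -0.68 with fenclorim and -0.19 and -0.05 with CMP.

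SBT1.3 is a subtilase with signals of 225, 244 and 205 in acetone and 96.3, 88.5 and 78.6 with fenclorim at 4 h, groups that did not overlap. It fell by 1.36 ± 0.22 (SE) on the log2 scale with fenclorim at 4 h (limma adjusted p = 0.000151). With fenclorim at 24 h it fell by 0.80 (adjusted p = 0.00948) and with CMP at 4 h by 0.82 (adjusted p = 0.0081). Centring each array on its median ended both of the latter calls, at -0.30 and -0.53, and so did leaving out CMP 4 h replicate 1 for the CMP value, at -0.60 with an adjusted p of 0.0527. With CMP at 24 h the difference was -0.05 (adjusted p = 0.87).

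SBT4.12 had acetone signals of 290, 300 and 609 at 4 h and CMP signals of 122, 151 and 116, all lower. It fell with CMP by 1.54 ± 0.41 (SE) at 4 h (limma adjusted p = 0.00721) and by 1.46 at 24 h (adjusted p = 0.00835). SBTI1.1, a subtilase with a role in processing a phytosulfokine precursor, fell with CMP at 24 h by 1.81 ± 0.41 (adjusted p = 0.00196). Its 24 h signals were 32.3, 32.5 and 39.4 with acetone and 10.8, 9.05 and 9.80 with CMP, the latter all under the 40th percentile of their arrays, so the size of that difference is uncertain. With fenclorim at 4 h its difference was -0.98 (adjusted p = 0.0697), and without the array apart, fenclorim 4 h replicate 3, it was -1.59 (adjusted p = 0.00133).

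The remaining 3 lower calls with fenclorim at 24 h were close to the threshold. They were S1P, the Golgi protease that releases membrane-bound transcription factors, at -0.68 (limma adjusted p = 0.0468), SBT4.12 at -1.11 (adjusted p = 0.0382) and SBTI1.1 at -1.06 (adjusted p = 0.0498). Median centring, which removes the general shift toward lower signals, left 0 of the 4 lower calls at this time, and quantile normalization left 2. Leaving out acetone replicate 2, fenclorim replicate 1 or fenclorim replicate 2 of 24 h left 1, and leaving out acetone replicate 1 or 3 left 2. At 4 h the count with fenclorim rose from 1 to 2 without acetone replicate 2 or fenclorim replicate 1, and to 3 without fenclorim replicate 3. The count with CMP at 4 h was 1 without CMP replicate 1. SBT3.12 and ATSBT5.2 were not called in any comparison with acetone in the chosen fit. Their differences with fenclorim at 4 h moved when an array was left out. That of ATSBT5.2 ran from -1.65, without fenclorim replicate 3, the array apart, to -0.61. That of SBT3.12 ran from -1.19, without fenclorim replicate 1, to -0.70. SBT5.4 and SBT4.13 were too dim to test.

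**Figure D3:**
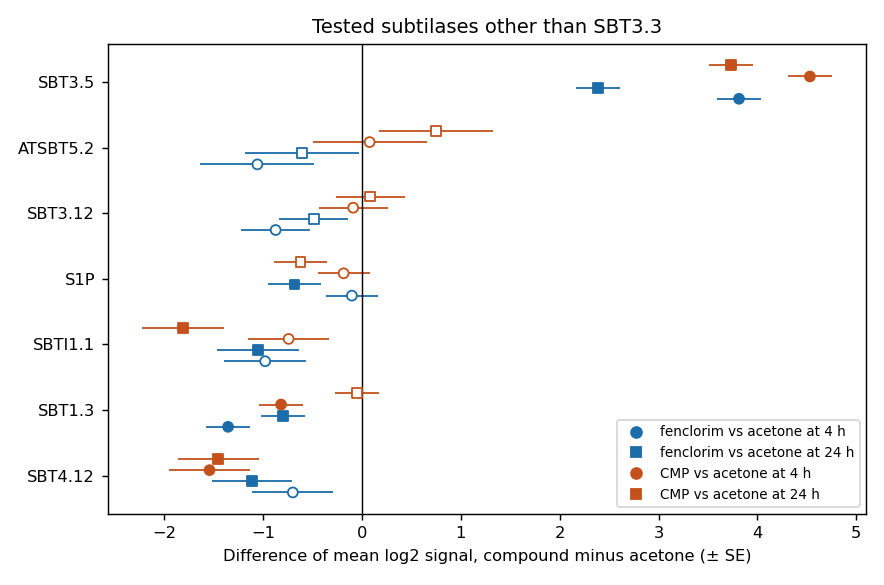
Difference in mean log2 signal from acetone for the 7 tested subtilases other than SBT3.3, with the compound by colour and the time by symbol. Bars are SEs, and filled symbols passed limma's test at an adjusted p under 0.05. SBT3.5 lies between 2.39 and 4.53, and every other filled symbol lies below 0.

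In the direct comparison of the compounds, none of the 7 subtilases was called at 4 h, where 3.56% of the tested probe sets were called higher with CMP and 3.77% lower. At 24 h SBT3.5 and SBT1.3 were higher with CMP. For SBT1.3 the difference was 0.75 (95% interval 0.28 to 1.21, limma adjusted p = 0.0188), and the call was lost without fenclorim 24 h replicate 1 (0.63) or replicate 3 (0.65), without CMP 24 h replicate 3 (0.71), and with median centring (0.52).

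SBT3.3 has been placed upstream of salicylic acid signalling and of chromatin changes at defence genes. Few of the usual genes of those pathways carry a name in the annotation. Of 33 listed loci of priming and salicylic acid signalling 1 was named, SAG101, and of 12 loci of chromatin and RNA-directed DNA methylation 0 were named. Of 17 loci of pattern-triggered immunity 2 were named, of 12 loci of the oxidative stress response 3 and of 9 jasmonate loci 1. With 6 named WRKY factors, of which 5 were tested, the defence and stress lists held 12 tested genes.

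Of these 12 genes, 7 were higher and 1 lower with fenclorim at 4 h, where 14.4% of all tested probe sets were called higher and 25.0% lower. At 24 h 6 were higher and 2 lower, beside 14.2% and 27.7%. With CMP 8 were higher and 0 lower at 4 h, beside 13.8% and 23.3%, and 6 higher and 1 lower at 24 h, beside 17.3% and 25.7%. EFR is counted as higher each time and enters the medians that follow. It was tested only because the compound arrays were high, so 1 higher call in each of these counts carries no support. The lists were also chosen with earlier results of these data known. An excess over the shares of all tested probe sets can come from that choice, so the counts and medians are a description only. The median differences were 0.77 and 0.29 with fenclorim and 1.97 and 0.82 with CMP, where the medians over all tested probe sets were below 0. Between the compounds 4 were higher with CMP and 0 lower at 4 h, beside 3.56% and 3.77% of all tested probe sets, and 3 were higher and 1 lower at 24 h, beside 17.2% and 13.7%.

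Among pattern-triggered immunity genes, EFR, the receptor that recognises bacterial elongation factor Tu, had a mean signal of 6.17 ± 1.07 (SD, n = 3) with acetone at 4 h. It was 28.0 ± 1.29 with fenclorim and 33.1 ± 8.08 with CMP at that time. At 24 h the means were 9.88 ± 3.01 with acetone, 24.6 ± 9.95 with fenclorim and 23.6 ± 1.34 with CMP. EFR was above the 40th percentile in all 12 compound arrays and in 0 of 6 acetone arrays, so no test or size of difference is given for it.

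BIK1, a cytoplasmic kinase that relays signals from such receptors, rose by 0.76 ± 0.20 (SE) with fenclorim (limma adjusted p = 0.00582) and by 0.98 with CMP (adjusted p = 0.000979) at 4 h. At 24 h the CMP difference was 0.80 (adjusted p = 0.00337). The fenclorim difference of 0.51 passed narrowly (adjusted p = 0.048) and lost its call without any 1 of 5 of the 6 arrays, namely acetone replicates 1 and 3 and the 3 fenclorim replicates, with values of 0.37 to 0.54.

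Of the WRKY transcription factors, WRKY6, which acts in defence and senescence, and WRKY22, which acts downstream of flagellin perception, rose in all 4 comparisons with acetone. WRKY6 had mean signals of 35.6 ± 9.61 (SD, n = 3) with acetone, 317 ± 43.9 with fenclorim and 410 ± 28.9 with CMP at 4 h. Its log2 differences were 3.18 ± 0.25 (SE) and 1.90 with fenclorim and 3.56 and 2.43 with CMP, with a largest limma adjusted p of 3.28e-05. WRKY22 also differed between the compounds. Its mean signals at 4 h were 52.8 ± 11.5 with acetone, 90.2 ± 17.8 with fenclorim and 281 ± 46.1 with CMP, and CMP exceeded fenclorim by 1.64 ± 0.19 (adjusted p = 5.65e-05) at 4 h and by 1.05 (adjusted p = 0.000938) at 24 h.

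WRKY53, a regulator of senescence, moved otherwise. Its mean signal at 24 h was 130 ± 22.8 (SD, n = 3) with acetone and 27.2 ± 9.86 with fenclorim. It fell in this comparison by 2.32 ± 0.35 (SE) on the log2 scale (limma adjusted p = 0.000109), and with CMP at 24 h its difference was -0.22. At 4 h its differences were -0.10 with fenclorim and 0.82 with CMP (adjusted p = 0.0748). The latter was called with median centring (1.11), with quantile normalization (1.00), and without acetone 4 h replicate 1 (1.17) or CMP 4 h replicate 2 (1.05). The calls for WRKY20 with fenclorim at 4 h (-0.58) and WRKY47 with CMP at 24 h (-0.95) were lost with median centring, and also when an array was left out. For WRKY20 these were acetone 4 h replicate 1 (-0.40) and fenclorim 4 h replicate 3 (-0.48), and for WRKY47 acetone 24 h replicates 2 and 3 and CMP 24 h replicates 1 and 2 (-0.80 to -0.99).

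The oxidative stress list held STZ, a zinc finger repressor induced by many stresses, and NDB2, an external NADH dehydrogenase of the mitochondrion. STZ had mean signals of 56.5 ± 6.75 (SD, n = 3) with acetone, 325 ± 18.1 with fenclorim and 563 ± 85.5 with CMP at 4 h. It rose in all 4 comparisons with acetone, by 2.53 and 1.62 with fenclorim and by 3.31 and 2.09 with CMP on the log2 scale, with a largest limma adjusted p of 4.74e-06. NDB2 also rose in all 4 but with the larger values for fenclorim, 3.80 and 1.81 against 2.97 and 1.05 with CMP, and a largest adjusted p of 0.00334. At 24 h NDB2 was lower with CMP than with fenclorim by a difference of -0.76 (limma adjusted p = 0.036), a call that was lost without any 1 of 5 of the 6 arrays, all but fenclorim replicate 2, with values of -0.69 to -0.79. The effects of NDB2 were smaller at 24 h than at 4 h with both compounds, by tested differences of -1.99 with fenclorim (adjusted p = 0.00922) and -1.91 with CMP (adjusted p = 0.0105), and the CMP effect on STZ changed by -1.22 (adjusted p = 0.0153). In the latter comparison of CMP effects 2.21% of the tested probe sets were called lower.

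The remaining locus of that list, AT2G21640, rose with CMP at 4 h by 2.89 ± 0.44 (SE) on the log2 scale (limma adjusted p = 8e-05). Its fenclorim difference at 4 h of 1.25 (adjusted p = 0.0332) lost its call without any 1 of 5 of the 6 arrays, all but acetone replicate 1, with values of 0.94 to 1.37. With fenclorim at 24 h it was not called at -0.91, and was called at -1.54 (adjusted p = 0.00262) without fenclorim 24 h replicate 2. CMP exceeded fenclorim by 1.64 at 4 h (adjusted p = 0.0311) and by 1.39 at 24 h (adjusted p = 0.0261). The 4 h call was lost without fenclorim replicate 1 or 2 or CMP replicate 1 or 2, with values of 1.37 to 1.68. The 24 h call was lost without any 1 of 5 of the 6 arrays, with values of 0.78 to 1.45, and was 2.02 without the remaining one, fenclorim 24 h replicate 2.

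SAG101, a partner of EDS1 in immunity, differed from acetone at 4 h by 0.09 ± 0.41 (SE) with fenclorim (limma adjusted p = 0.887) and rose by 1.54 with CMP (adjusted p = 0.00701). CMP exceeded fenclorim by 1.45 (adjusted p = 0.0374), and this call was lost without any 1 of 5 of the 6 arrays, all but CMP replicate 2, with values of 1.12 to 1.61. PDF1.2, a defensin used as a marker of jasmonate and ethylene signalling, was not called with CMP and fell by 1.78 with fenclorim at 24 h (adjusted p = 0.0177). That call was lost with median centring (-1.28) and without acetone 24 h replicate 2 (-1.63), acetone 24 h replicate 3 (-1.49) or fenclorim 24 h replicate 3 (-1.49), and no fenclorim array of that time was above its 40th percentile.

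**Figure D4:**
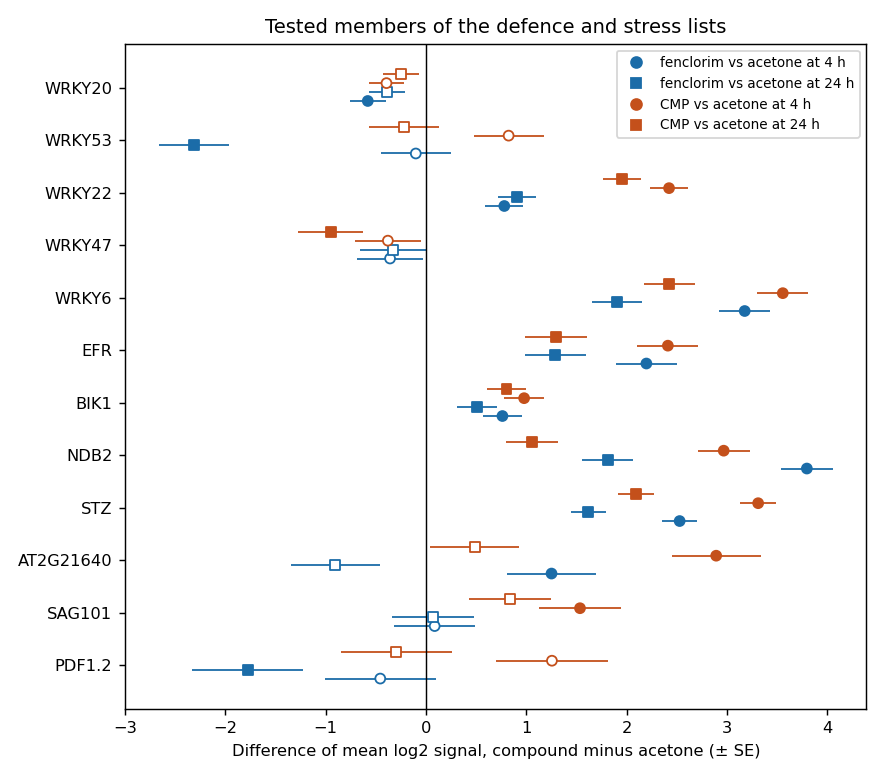
Difference in mean log2 signal from acetone for the 12 tested genes of the defence and stress lists, with the compound by colour and the time by symbol. Bars are SEs, and filled symbols passed limma's test at an adjusted p under 0.05. WRKY6, WRKY22, BIK1, NDB2 and STZ have 4 filled symbols above 0, and WRKY53 and PDF1.2 each have 1 filled symbol below 0. EFR also has 4 above 0. They are not read as tests or sizes, because only its compound arrays were above the 40th percentile.

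Markers of tissue type were read beside these values. RCA, the Rubisco activase of green tissue, was the only named marker of 8 listed for green tissue. Its mean signal was 2144 ± 346 (SD, n = 3) with acetone at 4 h and 2479 ± 292 at 24 h, and with CMP it was 1424 ± 90.4 and 489 ± 120. It fell with CMP at 24 h by 2.37 ± 0.23 (SE) on the log2 scale (limma adjusted p = 6.52e-07) and with fenclorim at 4 h by 1.04 (adjusted p = 0.00187), the latter not called with median centring (-0.70). The difference between CMP and fenclorim for RCA changed by -2.29 from 4 h to 24 h (adjusted p = 0.00314), a comparison in which 3.09% of the tested probe sets were called lower. Of 14 listed root cell type markers, the root hair expansin EXPA7 was too dim to test. EXPA18, another root hair expansin, had a mean signal of 33.6 ± 16.6 (SD, n = 3) and 43.8 ± 23.1 with acetone at 4 h and 24 h. It was above the 40th percentile in 5 of 6 acetone arrays and in 1 of 12 compound arrays. EXPA18 thus passed the filter only through the acetone arrays, in which it was high, so no test or size of difference is given for it. The part of these tissues in the levels of SBT3.3 was not tested.

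The named genes with the profile most like that of SBT3.3 were sought over the 6 group means of log2 signal with a small offset, centred per gene, by the root mean square difference. Among 8236 other named and tested probe sets the nearest was AT1G60750 at 0.745 log2 units. AT4G39670 (1.04), AT1G68620 (1.098), AT1G26390 (1.24), AT4G01870 (1.27), AT2G31945 (1.33), AT1G57630 (1.33) and AT3G60420 (1.34) followed. The annotation gives these 8 no name beyond their locus. SBT3.5 stood at rank 18 (1.57) and AT1G33030 at rank 102 (2.06).

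Because they were picked for resembling SBT3.3 over all 6 groups, their rise over acetone is a property of the choice. So is any likeness to SBT3.3 in the order of the compounds or over time. AT1G60750 had mean signals of 1.84 ± 2.37 (SD, n = 3) and 3.25 ± 2.77 with acetone, 227 ± 42.9 and 87.6 ± 38.1 with fenclorim and 164 ± 54.7 and 126 ± 13.8 with CMP, at 4 h and 24 h. Like SBT3.3 it was close to background in acetone, but its fenclorim mean at 4 h was above its CMP mean. Its log2 difference of CMP from fenclorim was -0.51 ± 0.80 (SE) at 4 h and 0.62 ± 0.80 at 24 h, so the compounds were not told apart for this gene. AT4G39670 kept the order of SBT3.3 with CMP above fenclorim at both times, with means of 387 ± 90.0 and 1523 ± 391 at 4 h and of 266 ± 48.6 and 1100 ± 193 at 24 h. AT4G01870 had the reverse order, with means of 4256 ± 289 with fenclorim and 2107 ± 517 with CMP at 4 h.

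**Figure D5:**
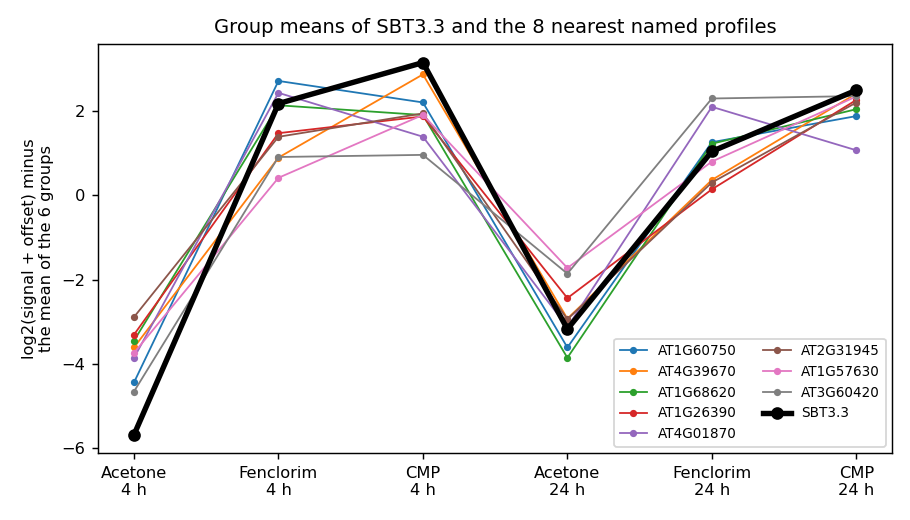
Group means of log2 signal with a small offset, minus the mean of the 6 groups, for SBT3.3 (black) and the 8 named genes nearest to it. Each point is a mean of 3 arrays. All 9 lines are low in both acetone groups and high in the 4 compound groups, and SBT3.3 spans the widest range, from -5.68 to 3.15.

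The set of nearest genes depended on the measure. Over the 18 arrays in place of the group means the same 8 were found, and without the offset 6 of the 8. With profiles scaled to equal spread 0 of the 8 were found, the nearest was then the chromosomal neighbour AT1G33030, and EFR was among the nearest 8. With 16 signal units added, a measure chosen after seeing the data, 4 of the 8 were found.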

How the data were processed

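Transcripts were measured on 18 ATH1 arrays, 3 in each of 6 groups taken from the labels. The authors deposited linear intensity signals from MAS5 in GCOS, per the submitters' processing notes. The sources used here give neither software versions nor the scaling target. All columns were used, and no 2 arrays were identical. The number of arrays limits the precision.

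Controls (64 of 22810 probe sets) were left out. Of the other 22746, 13513 were listed with 1 gene, 503 with several and 8730 not at all in the platform annotation, and 13436 of those with 1 gene matched the RefSeq table of TAIR10.1, used only for names and gene order. Log2 signals of the 15261 probe sets above the 40th percentile of their array in at least 3 arrays were fitted with limma 3.58.1 in R 4.3.3, with 1 mean per group over all 18 arrays and an intensity trend. P-values were Benjamini-Hochberg adjusted over these and called under 0.05. Each SE and p-value from this fit rests on a spread that all 6 groups share. The offset for profiles was 0.416. Named were all tested subtilases and tested neighbours, list members called against acetone, and the 8 nearest profiles. The procedure was tested on simulated data. Python 3.11.15 made the tables (pandas 2.3.3, numpy 2.4.6) and figures (matplotlib 3.10.9).

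SBT3.3, the gene lists and the tests were chosen with earlier results of these data known, and the RALF and defensin lists after the annotation was seen. Alternatives were other offsets, median centring, quantile normalization, other filters, no trend, a replicate block, only the arrays compared, and leaving out each array or the 3 that stood apart.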

Additional observations from a re-analysis of the deposited data

Results flagged for a closer look

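Several differences changed between 4 h and 24 h. For SBT3.3 all acetone arrays were higher at 24 h than at 4 h while the fenclorim arrays were all lower, a difference in the fenclorim effect of -3.93 on the log2 scale, and for CMP, whose arrays were also all lower, it was -3.46. These differences were not tested, since the gene was chosen on these arrays.

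For other genes the change between the times was tested with limma. These calls were not repeated under the alternatives in processing. The effect of fenclorim was smaller or more negative at 24 h for SBT3.5 by -1.42 (adjusted p = 0.0251), for WRKY53 by -2.21 (adjusted p = 0.026) and for NDB2 by -1.99 (adjusted p = 0.00922). The effect of CMP changed for NDB2 by -1.91 (adjusted p = 0.0105), for STZ by -1.22 (adjusted p = 0.0153), for RCA by -1.79 (adjusted p = 0.0076) and for AT2G21640, a locus of the oxidative stress list, by -2.41 (adjusted p = 0.0466). The difference between CMP and fenclorim changed for RCA by -2.29 (adjusted p = 0.00314), for the defensin-like gene LCR68 by -1.47 (adjusted p = 0.0287) and for RALFL33 by -1.09 (adjusted p = 0.0319).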

How the results depend on the processing

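The differences of SBT3.3 between groups kept their direction under every alternative run. With 16 signal units added they were 5.14 and 3.31 with fenclorim at 4 h and 24 h, 6.09 and 4.71 with CMP, and 0.73 for acetone between the times. Median centring gave 4.74 and quantile normalization 4.53 for fenclorim at 24 h, and quantile normalization 6.06 for CMP at 24 h. Leaving out 1 array at a time gave 7.33 to 9.00 and 4.14 to 4.40 for fenclorim, 8.30 to 9.97 and 5.55 to 5.89 for CMP, 0.91 to 1.03 and 1.299 to 1.64 for CMP minus fenclorim, 1.94 to 3.62 for acetone over time, -1.23 to -1.07 for fenclorim over time and -0.81 to -0.46 for CMP over time. Lower subtilase calls with fenclorim at 24 h, 4 in the chosen fit, were 0 with median centring, 2 with quantile normalization and 1 with only the arrays compared, and the CMP count at 4 h was 1 with median centring. Without the 3 arrays apart, the fenclorim count at 4 h was 3. Leaving out 1 array gave 1 to 3 lower subtilases for fenclorim at either time, 1 to 2 and 2 to 3 for CMP, and 1 higher throughout. It gave 6 to 7, 6 to 8, 8 to 9 and 6 to 7 calls in the defence lists. The nearest 8 profiles kept 0 with scaling and 4 with 16 units added. Over 45 named genes, 4020 of 4284 repeated values stayed on their side of the threshold and none turned direction past it. These repeats cover the comparisons with acetone and between the compounds at each time. Calls of these genes between 4 h and 24 h, or on a change of effect, were not repeated. Labels number replicates alike in each group, but same-numbered arrays of different groups correlated at -0.51 to 0.48 (median -0.05) over 45 pairs in their deviations from group means, and 12 exceeded 0.1, so the numbers were not taken as pairs. A replicate block left the SBT3.3 difference at 8.18 with fenclorim at 4 h and gave 3 lower subtilases in place of 4 with fenclorim at 24 h. Signals under the 40th percentile, which include all acetone values of SBT3.3, limit every fold given against acetone.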

Other observations

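Secreted peptide families were read from the annotation beside the subtilases, since subtilases process such precursors. RALF-like peptides are small secreted signals that alkalinise the cell wall. Of 11 named, 7 were tested, and those called lower than acetone were 3 with fenclorim at 4 h and 3 at 24 h, beside 25.0% and 27.7% of all tested probe sets, and 4 with CMP at either time, beside 23.3% and 25.7%. RALFL24 had mean signals of 134 ± 27.9 (SD, n = 3) with acetone, 18.1 ± 12.0 with fenclorim and 18.2 ± 9.39 with CMP at 4 h, differences of -3.07 and -2.99 on the log2 scale (limma adjusted p = 2.17e-05 and 2.74e-05). In each of these compound groups 1 of 3 arrays was above its 40th percentile, so the sizes are uncertain. RALFL34 fell by 1.59 and 1.33 with fenclorim and by 1.24 and 2.21 with CMP, and RALFL22 fell by 1.78 and 1.06 with fenclorim and by 1.46 and 1.63 with CMP, with limma adjusted p-values of 0.00152 or less. With median centring RALFL22 was not called with fenclorim at 24 h (-0.57, limma adjusted p = 0.0858).

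The other lower calls were small. RALFL31 differed with CMP at 4 h by -0.76 (limma adjusted p = 0.0205), a call lost without acetone 4 h replicate 2 (-0.65), CMP 4 h replicate 1 (-0.62) or CMP 4 h replicate 3 (-0.74). RALFL33 differed with CMP at 24 h by -0.59 (limma adjusted p = 0.0203), a call lost without acetone 24 h replicate 2 (-0.58), acetone 24 h replicate 3 (-0.56) or CMP 24 h replicate 3 (-0.52). RALFL18 had mean signals of 6.74 ± 4.33 (SD, n = 3) with acetone, 16.5 ± 9.45 with fenclorim and 50.1 ± 3.06 with CMP at 4 h, and of 7.84 ± 3.55, 11.6 ± 4.77 and 36.9 ± 6.02 at 24 h. It was above the 40th percentile in 8 compound arrays and 0 acetone arrays, so no test is given for it.

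Of 13 named defensin-like genes, 8 were tested. PDF1.4 rose with CMP by 0.90 at 4 h (limma adjusted p = 0.00591) and by 1.47 at 24 h (adjusted p = 8.01e-05), as the 1 of 8 called higher at 4 h, where 13.8% of all tested probe sets were. LCR68 fell by 1.26 with fenclorim at 4 h (adjusted p = 0.000904), by 1.05 at 24 h (adjusted p = 0.00386) and by 2.03 with CMP at 24 h (adjusted p = 8.28e-06). Its CMP difference at 4 h of -0.76 (adjusted p = 0.0254) lost its call without acetone 4 h replicate 3 (-0.64), CMP 4 h replicate 1 (-0.77) or CMP 4 h replicate 3 (-0.71). PDF2.5 fell at 24 h by 3.02 with fenclorim (adjusted p = 0.000682) and by 2.11 with CMP (adjusted p = 0.00637). Only 1 of 3 fenclorim arrays and 2 of 3 CMP arrays were above their 40th percentile there, so the sizes are uncertain. Called lower at 4 h was 1 of 8 with either compound, beside 25.0% and 23.3% of all tested probe sets. At 24 h 3 of 8 were called lower with fenclorim and 2 of 8 with CMP, beside 27.7% and 25.7%. PDF2.1 was called higher at 24 h with both compounds, but 0 of 3 acetone arrays and 1 of 3 arrays of each compound were above their 40th percentile, so no size is given.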
